A study of Mus musculus with 4 samples.

Results

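The genes described here are 30 writers, erasers and corepressors of histone acetylation, of 23521 genes measured in Hepa1-6 cells, a mouse hepatoma line. The list is fixed by gene name, with no threshold on measured values, and was drawn up with earlier results of these data known. They comprise 10 histone acetyltransferases, 11 zinc-dependent deacetylases (4 of class I, 4 of class IIa, 2 of class IIb and 1 of class IV), 6 sirtuins and 3 corepressor scaffolds. All 30 were found in the expression table, as 62 RefSeq transcript rows. In the Chd1KD group (n = 2 libraries) the cells carried a lentiviral shRNA against Chd1, and in the Control group (n = 2) a scrambled lentiviral shRNA. Both groups were kept in puromycin at 4 μg/ml over 3 weeks after transduction, so selection was common to them. Poly(A)-enriched RNA was sequenced. Nothing in the labels shows that replicate libraries stem from separate transductions, so every p-value measures library-to-library spread alone, and that spread could be technical. The comparison asks which of these mRNAs differed between Chd1-depleted and control hepatoma cells.

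Acetyltransferases add acetyl groups from acetyl-CoA to lysines of histone tails, and deacetylases remove them. The zinc-dependent deacetylases of class I act mainly as the catalytic subunits of nuclear corepressor complexes (SIN3, NuRD, CoREST and NCoR), whereas sirtuins need NAD+ and link deacylation to the metabolic state of the cell. Chd1 is an ATP-dependent chromatin remodeller whose tandem chromodomains bind histone H3 methylated at lysine 4, a mark of active promoters that is often acetylated as well. In liver cells these enzymes are known as regulators of glucose, lipid and NAD+ metabolism.

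Chd1 itself had 10.4 and 11.3 RPKM (read number divided by transcript length and by the library's mapped reads) in the Chd1KD libraries, against 21.4 and 22.5 RPKM in the Control libraries. The groups did not overlap, and the targeted mRNA fell by 0.96 ± 0.07 (SE) on the log2(RPKM + 1) scale, to 0.49 times the Control mean (limma, adjusted p = 0.012). RPKM summed over all rows ranged between 459381 and 484490 per library, and the read depth behind these values is unknown. Of 8 hepatocyte markers, 5 averaged at least 1 RPKM, while Ttr and Serpina1a were listed at 0 in all 4 libraries. Of these 5, Alb varied within the Control group, with 42.2 and 53.0 RPKM in Chd1KD cells and 18.6 and 55.6 RPKM in Control cells. The other 4 had groups that did not overlap, in both directions, and none was called by limma. Afp had 55.2 and 58.3 RPKM in Chd1KD, against 29.9 and 39.7 RPKM in Control (ratio 1.63, limma adjusted p = 0.077). Hnf4a, Apob and Trf had lower means in Chd1KD, with ratios of 0.78, 0.72 and 0.82 and limma adjusted p of 0.12, 0.12 and 0.21. Their part in the results was not tested. The hepatocyte sums were 204.7 to 236.8 RPKM in Chd1KD and 184.7 to 251.5 RPKM in Control. Among matched markers of other cell types, 5 of 6 macrophage, 5 of 6 endothelial, 5 of 6 fibroblast and 6 of 6 lymphocyte genes averaged under 1 RPKM. Summed over each list in each library, the macrophage markers gave 7.34 to 7.46 RPKM in Chd1KD and 7.60 to 8.95 RPKM in Control, almost all of it Cd14. The endothelial sums were 1.70 to 2.14 RPKM in Chd1KD and 2.56 to 4.07 RPKM in Control, almost all of it Egfl7. The fibroblast sums were 386.2 to 393.8 RPKM in Chd1KD and 386.0 to 430.4 RPKM in Control, almost all of it Dcn. The lymphocyte sums were 0 to 0.0156 RPKM in Chd1KD and 0.0511 to 0.0691 RPKM in Control. Adgre1, Clec4f, Marco, Cdh5, Kdr, Tek, Stab2, Pdgfrb and Lrat were listed at 0. Other members of the same lists, Cd14, Egfl7 and Dcn among them, were detected. Egfl7 had 2.05 and 1.69 RPKM in Chd1KD, against 4.03 and 2.53 RPKM in Control, and its part in the results was not tested. In these bulk libraries, fewer cells of a kind and less RNA per cell cannot be told apart.

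No acetylation gene passed the test. Of the 30, 28 averaged at least 1 RPKM and were tested, and 0 reached an adjusted p under 0.05 in limma, where 47 of 10209 genes did (0.46%). At an unadjusted p under 0.05 there were 5 of the 28. The share among all tested genes was 18.5%. Hdac10, Sirt3, Sirt6 and Sirt7 were the 4 with lower means in Chd1KD, and Rcor1 was the 1 with a higher mean. On the log2(RPKM + 1) scale, which shrinks differences of weakly expressed genes, the 95% interval of the fold change lay within 1.5-fold in either direction for 27 of the 28. Hdac10 was the exception, with a ratio of mean RPKM of 0.61 and a log2 fold change of -0.51, or -0.68 with a pseudocount of 0.1. Such narrow intervals were found for 94.3% of all tested genes.

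The signs of the fold changes leaned to one side. The log2 fold change was negative, meaning a lower value in Chd1KD, for 22 of the 28 genes, against 56.5% of all tested genes. Without Chd1KD replicate 1 it was negative for 17 of the 28, against 56.1% of all tested genes. With all 4 libraries, the median of the 28 was -0.08 on the log2(RPKM + 1) scale, and the median of all tested genes was -0.02. In 12 of the 28 the Chd1KD and Control libraries did not overlap, 10 with Chd1KD lower and 2 with Chd1KD higher. Groups did not overlap in 51.8% of all tested genes, 30.5% lower and 21.3% higher. Between single libraries of different groups, the median difference over the 28 genes was -0.09 and -0.10 for Chd1KD replicate 1 minus Control replicates 1 and 2. For Chd1KD replicate 2 it was -0.05 and -0.06. Over all tested genes these medians were -0.033 and -0.005 for Chd1KD replicate 1, and -0.037 and -0.009 for Chd1KD replicate 2. Between libraries of the same group, as replicate 2 minus replicate 1, the median over the 28 genes was 0.03 in Chd1KD and 0.04 in Control. Over all tested genes it was -0.005 in Chd1KD and -0.031 in Control. For scale, the median absolute difference over the 28 genes was 0.064 between the 2 Chd1KD libraries and 0.114 between the 2 Control libraries. Over all tested genes it was 0.068 and 0.095. These values describe single genes, and a median over 28 genes varies on another scale.

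**Figure D1:**
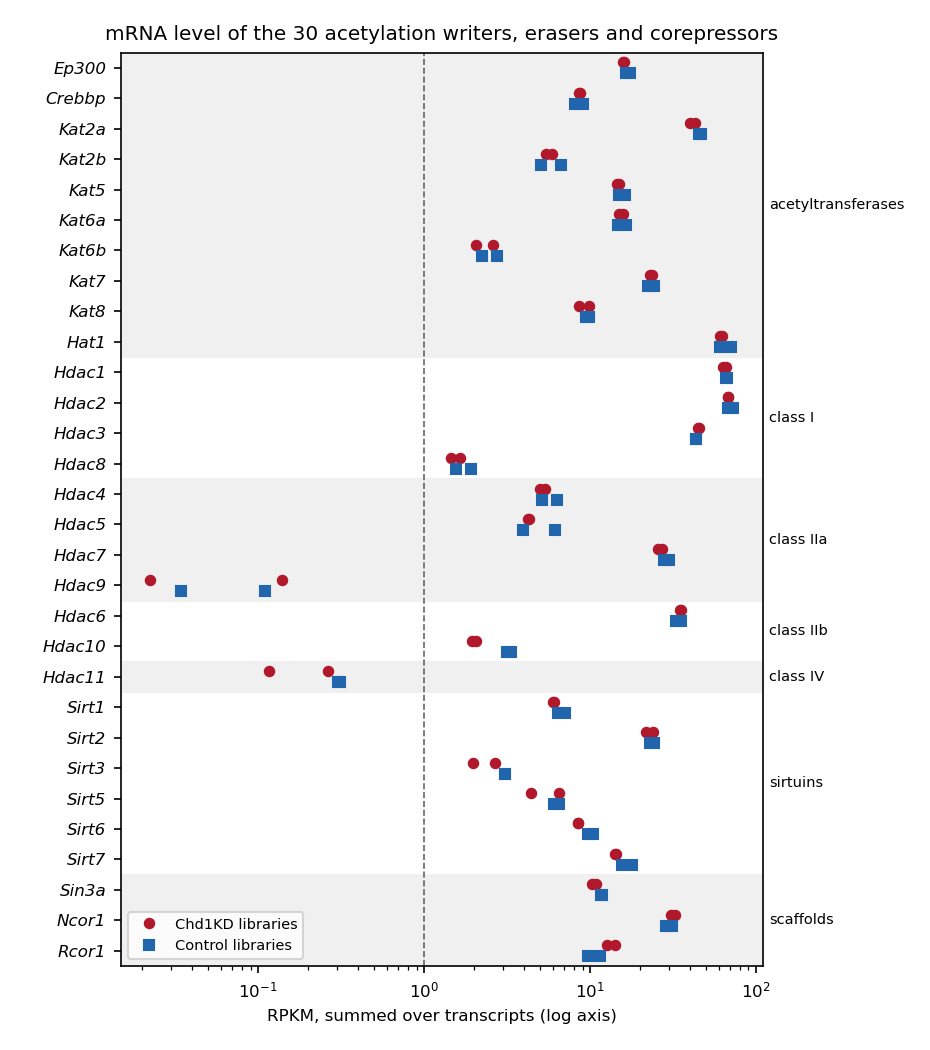
Summed RPKM (log axis) of each of the 30 genes in the 2 Chd1KD (circles) and 2 Control (squares) libraries, with the filter at 1 RPKM as a dashed line. Most pairs of groups sit on top of each other across levels between about 1 and 73 RPKM, Hdac10 and Rcor1 stand apart, and Hdac9 and Hdac11 lie left of the line.

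**Figure D2:**
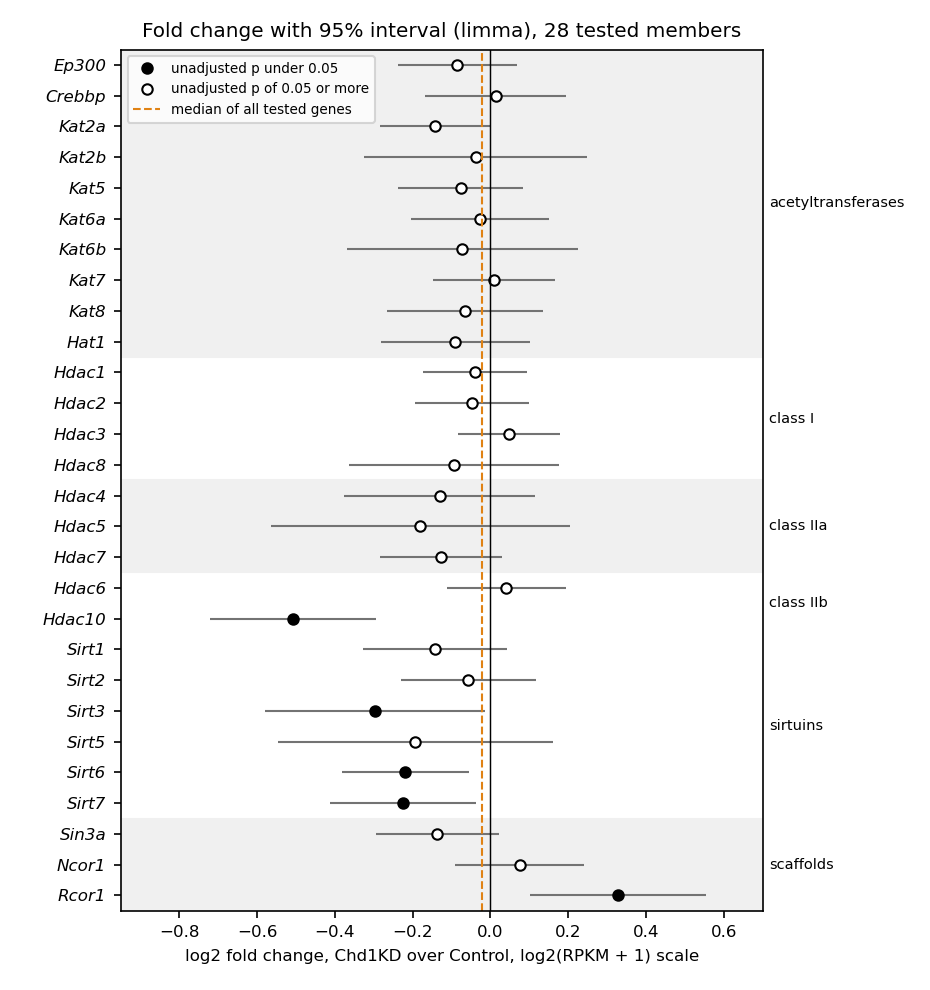
Log2 fold change of Chd1KD over Control on the log2(RPKM + 1) scale for the 28 tested genes, with limma's 95% interval as a bar. Filled points mark the 5 genes at an unadjusted p under 0.05, and the dashed line marks the median of all tested genes at -0.02.

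The 10 acetyltransferases were all expressed and differed little between the groups. All 10 were tested, 8 had a negative fold change, their median was -0.07, and 0 reached an unadjusted p under 0.05. Hat1, which acetylates newly made histone H4 before its deposition, was the most abundant of them. It had 61.0 and 62.5 RPKM in Chd1KD cells and 71.0 and 60.9 RPKM in Control cells, so 1 Control library was high and the groups overlapped. Ep300 and Crebbp are the paralogous coactivators that acetylate histone H3 at lysine 27 in enhancers and promoters. Ep300 had 15.9 and 16.0 RPKM in Chd1KD, against 16.4 and 17.5 RPKM in Control (log2 fold change -0.08, 95% interval -0.24 to 0.07, limma adjusted p = 0.51). Crebbp had 8.70 and 8.57 RPKM in Chd1KD, between the Control values of 8.10 and 9.01 RPKM. Both Chd1KD libraries were below both Control libraries for Ep300, and the groups overlapped for Crebbp. The ratio of Ep300 to Crebbp was 1.83 and 1.87 in Chd1KD, against 2.03 and 1.94 in Control.

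Kat2a, the catalytic subunit of the SAGA and ATAC coactivator complexes, had 42.6 and 40.2 RPKM in Chd1KD cells, against 46.4 and 45.1 RPKM in Control cells. The groups did not overlap, and the ratio of the means was 0.90 (log2 fold change -0.14, 95% interval -0.28 to 0.0010, limma adjusted p = 0.27). Its close paralog Kat2b was less abundant, with 5.40 and 5.87 RPKM in Chd1KD inside the Control values of 5.05 and 6.66 RPKM. The 2 Kat2a transcripts had fold changes of opposite sign. NM_020004 had 13.05 and 11.2 RPKM in Chd1KD, against 19.3 and 16.2 RPKM in Control, while NM_001038010 had 29.6 and 29.0 RPKM in Chd1KD and 27.2 and 28.9 RPKM in Control. NM_020004 thus made up 30.6% and 27.9% of the Kat2a signal in Chd1KD libraries, against 41.5% and 35.9% in Control libraries. Fitted as a row of its own, NM_020004 had a log2 fold change of -0.51 ± 0.11 (SE), with a limma adjusted p of 0.23 over all transcript rows, and NM_001038010 one of 0.06.

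NM_020004 had the smallest p of the tested transcript rows of these genes, and its difference from NM_001038010 is 3 bases. In GRCm38 exon 9 of 18 lies on the minus strand of chromosome 11, at chr11:100708846-100708985 in NM_020004 and at chr11:100708846-100708982 in NM_001038010, inside the coding sequence. NM_020004 holds 3 more bases at the 5′ end of that exon, shown in capitals between 12 bases on either side, 5′ to 3′ in the direction of the transcript.
NM_020004: agcccatgccagCAGgggagaagagga
NM_001038010: agcccatgccaggggagaagagga
The transcripts are 3046 and 3043 bases long, and reads that cross this junction are the ones that separate them. The split of RPKM between the isoforms is the authors' estimate and carries no error of its own in the deposited values.

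The remaining acetyltransferases belong to the MYST family. Kat5, the catalytic subunit of the TIP60 complex, had 14.5 and 14.9 RPKM in Chd1KD, against 15.0 and 16.2 RPKM in Control (log2 fold change -0.08, limma adjusted p = 0.58). Kat6a, the MOZ enzyme, had 14.9 and 15.7 RPKM in Chd1KD and 14.8 and 16.5 RPKM in Control. Its paralog Kat6b was present at 2.04 and 2.61 RPKM in Chd1KD and 2.25 and 2.74 RPKM in Control. Of these, Kat5 had both Chd1KD libraries just below both Control libraries, and the others overlapped. Kat7, the HBO1 enzyme that acetylates histone H3 at lysine 14, had 23.6 and 23.0 RPKM in Chd1KD inside the Control values of 24.1 and 22.2 RPKM. Kat8, the MSL and NSL enzyme that acetylates histone H4 at lysine 16, had 8.52 and 9.84 RPKM in Chd1KD and 9.86 and 9.41 RPKM in Control. The intervals of the Kat7 and Kat8 fold changes ran between -0.15 and 0.17 and between -0.27 and 0.13.

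Class I deacetylases included the most abundant of the 30 genes and differed by small amounts. Hdac1 and Hdac2, the paralogous catalytic subunits of SIN3, NuRD and CoREST complexes, stood at the 88.4 and 89.1 percentile of the tested genes by mean RPKM. Hdac1 had 65.8 and 63.2 RPKM in Chd1KD and 66.8 and 65.8 RPKM in Control. Hdac2 had 67.7 and 68.1 RPKM in Chd1KD, between the Control values of 73.0 and 67.4 RPKM. Both pairs of groups overlapped, and the 95% intervals of the log2 fold changes ran between -0.17 and 0.09 for Hdac1 and between -0.19 and 0.10 for Hdac2. Hdac3, the catalytic subunit of the NCoR complex, had 44.4 and 45.4 RPKM in Chd1KD, above 43.4 RPKM in either Control library (log2 fold change 0.05, 95% interval -0.08 to 0.18, limma adjusted p = 0.68). Hdac8, the class I enzyme that deacetylates the cohesin subunit SMC3, was close to the filter at 1.66 and 1.454 RPKM in Chd1KD and 1.55 and 1.91 RPKM in Control. The ratio of Hdac1 to Hdac2 was 0.972 and 0.928 in Chd1KD, and 0.915 and 0.9752 in Control.

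Class IIa deacetylases have weak catalytic activity and act largely as signal-dependent adaptors that bring corepressors to MEF2 targets. The 3 tested genes were all negative in sign (median log2 fold change -0.13), and 0 reached an unadjusted p under 0.05. Hdac7 was the most abundant, with 27.2 and 25.7 RPKM in Chd1KD, against 29.99 and 27.96 RPKM in Control (log2 fold change -0.13, 95% interval -0.28 to 0.03, limma adjusted p = 0.35). Its groups did not overlap. Hdac4 had 4.99 and 5.31 RPKM in Chd1KD and 5.15 and 6.36 RPKM in Control, and the groups overlapped. Hdac5 had 4.26 and 4.24 RPKM in Chd1KD, between the Control values of 6.14 and 3.97 RPKM. The high Hdac5 value belonged to 1 Control library, and the fold change of -0.18 carried an interval between -0.57 and 0.20. That spread also appeared in its transcripts, since NM_001077696 held 25.6% and 24.1% of the Hdac5 signal in Chd1KD, and 14.8% and 67.2% in Control. Hdac9 had 0.138 and 0.0223 RPKM in Chd1KD and 0.110 and 0.0345 RPKM in Control, under the filter, and was not tested.

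Hdac10 had the largest fold change of the 28 tested genes. It is a class IIb enzyme known as a polyamine deacetylase, and in mouse it lies on chromosome 15 at chr15:89123303-89128700 (GRCm38, minus strand). Hdac10 had 1.94 and 2.05 RPKM in Chd1KD cells, against 3.17 and 3.33 RPKM in Control cells, or 1.99 ± 0.0795 and 3.25 ± 0.114 RPKM (SD, n = 2 each). Both Chd1KD libraries were below both Control libraries by more than the spread within either group, and the ratio of the means was 0.61. The log2 fold change was -0.51 ± 0.09 (SE), with a 95% interval between -0.72 and -0.29, and a limma adjusted p of 0.079 that missed the threshold. With the replicate number as a block, a pairing that the labels do not state, the limma adjusted p was 0.039. In that fit, calls over all genes numbered 325 instead of 47. The limma adjusted p of Hdac10 was 0.25 without a filter and 0.28 on the most abundant transcript. Leaving out each library in turn gave fold changes between -0.53 and -0.48. The gene was weakly expressed, at the 11.95 percentile of the tested genes. Its signal was spread over 4 transcript rows. The coding transcript NM_199198 had 0.513 and 1.11 RPKM in Chd1KD, against 1.251 and 2.23 RPKM in Control, and its groups did not overlap. The non-coding transcripts NR_028449 and NR_028448 had 0.743 to 0.761 and 0.195 to 0.496 RPKM in Chd1KD, against 0.818 to 1.41 and 0.286 to 0.510 RPKM in Control. NR_028447 was listed at 0.165 and 0 RPKM in Chd1KD and at 0 in both Control libraries.

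The other class IIb enzyme, the cytoplasmic tubulin deacetylase Hdac6, had overlapping groups. Its values were 34.8 and 35.5 RPKM in Chd1KD and 32.7 and 35.5 RPKM in Control (log2 fold change 0.04, 95% interval -0.11 to 0.19, limma adjusted p = 0.76). The ratio of Hdac6 to Hdac10 was therefore 17.97 and 17.3 in Chd1KD, against 10.3 and 10.7 in Control. Of the Hdac6 transcripts, NM_010413 had 14.5 and 12.4 RPKM in Chd1KD, against 10.4 and 11.3 RPKM in Control, and NM_001130416 had 20.3 and 23.1 RPKM in Chd1KD and 22.3 and 24.2 RPKM in Control. The NM_010413 groups did not overlap (log2 fold change 0.28 ± 0.10 (SE), limma adjusted p = 0.31 over transcript rows). Hdac11, the only class IV enzyme, was near the bottom of the measured range with 0.117 and 0.265 RPKM in Chd1KD and 0.305 and 0.313 RPKM in Control, and was not tested.

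**Figure D3:**
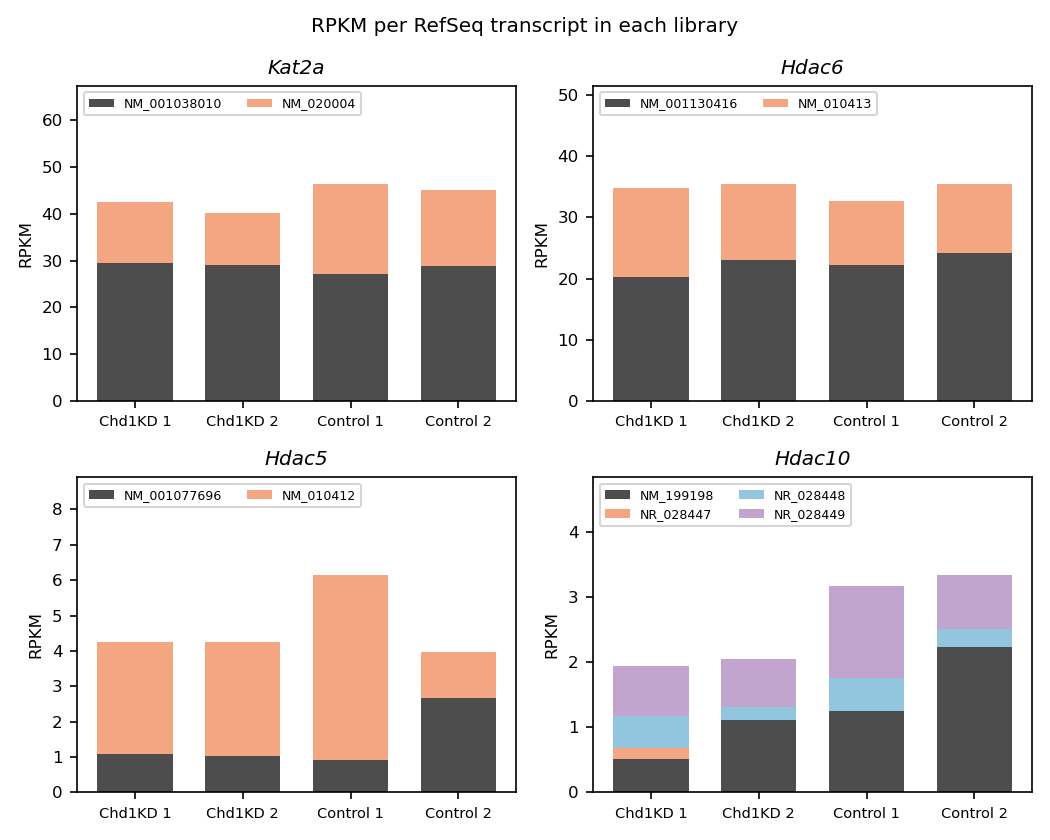
RPKM of each RefSeq transcript of Kat2a, Hdac6, Hdac5 and Hdac10, stacked by library with the Chd1KD libraries on the left. The NM_020004 part of Kat2a is thinner in both Chd1KD libraries, the Hdac5 isoforms swap between the Control libraries, and the total of Hdac10 is lower in both Chd1KD libraries.

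Across all 62 transcript rows, 43 averaged at least 1 RPKM and were tested in a fit over 11965 rows. Of the 43, 5 (11.6%) reached an unadjusted p under 0.05, where 14.3% of all tested rows did, and 0 were called, where the share called was 0%. The 3 with lower values in Chd1KD were Kat2a NM_020004, the main Hdac7 transcript NM_019572 and the single Sirt7 transcript. The 2 with higher values were Hdac6 NM_010413 and the single Rcor1 transcript. Hdac7 NM_019572 had 22.6 and 21.5 RPKM in Chd1KD, against 25.2 and 24.4 RPKM in Control.

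All 6 sirtuins had a lower mean in Chd1KD cells. Their median log2 fold change was -0.21, and in 4 of the 6 the groups did not overlap, where 30.5% of all tested genes had non-overlapping groups with Chd1KD lower and 56.5% a negative fold change. None of the 6 was called. Sirt6, the nuclear deacetylase of histone H3 at lysines 9 and 56 that is known to restrain glycolytic genes in liver, had 8.50 and 8.48 RPKM in Chd1KD, against 9.75 and 10.3 RPKM in Control. The groups did not overlap, with means of 8.49 ± 0.00822 and 10.04 ± 0.423 RPKM (SD, n = 2 each), and the ratio was 0.85. The log2 fold change was -0.22 ± 0.07 (SE), 95% interval -0.38 to -0.06, limma adjusted p = 0.18. Sirt6 lies at chr10:81621787-81627792 on the minus strand of GRCm38.

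Sirt7, the nucleolar sirtuin known for ribosomal DNA transcription and for removing acetyl groups from histone H3 lysine 18, had 14.2 RPKM in both Chd1KD libraries, against 17.95 and 15.6 RPKM in Control. The groups did not overlap, and the ratio was again 0.85 (log2 fold change -0.22 ± 0.08 (SE), 95% interval -0.41 to -0.04, limma adjusted p = 0.21). Without Control replicate 1, the higher of that pair, the fold change was -0.13, and without Control replicate 2 it was -0.32. Sirt7 (chr11:120618371-120625014, minus strand) overlaps Mafg, a small MAF transcription factor gene on the same strand, which had 31.3 and 29.8 RPKM in Chd1KD, against 34.2 and 33.9 RPKM in Control. How reads from their shared part were divided is not given in the sources used here, and its part in the Sirt7 values was not tested.

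Sirt3, the main mitochondrial deacetylase, had 1.98 and 2.67 RPKM in Chd1KD, against 3.07 and 3.05 RPKM in Control. Chd1KD replicate 1 was the low library, and the groups did not overlap. The ratio was 0.76, and the log2 fold change of -0.30 ± 0.12 (SE) had a 95% interval between -0.58 and -0.01 and a limma adjusted p of 0.25. Without Chd1KD replicate 1 the fold change was -0.15 and without Chd1KD replicate 2 it was -0.45. Sirt3 (chr7:140863663-140882309, minus strand) overlaps Psmd13 and Ric8a, and Psmd13, a proteasome subunit gene, had 120.8 and 120.5 RPKM in Chd1KD and 135.3 and 121.3 RPKM in Control. Ric8a had 22.9 and 24.0 RPKM in Chd1KD, against 21.5 and 22.2 RPKM in Control, with Chd1KD higher. The part of either gene in the low Sirt3 values was not tested.

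Sirt1, the nuclear sirtuin that deacetylates PGC-1α and p53, had 5.97 and 6.03 RPKM in Chd1KD, against 7.07 and 6.41 RPKM in Control (log2 fold change -0.14, 95% interval -0.33 to 0.04, limma adjusted p = 0.37). Its groups did not overlap. Sirt2, a mainly cytoplasmic tubulin deacetylase, had 21.6 and 23.9 RPKM in Chd1KD and 24.4 and 22.9 RPKM in Control. Sirt5, the mitochondrial desuccinylase, had 4.42 and 6.51 RPKM in Chd1KD and 6.09 and 6.52 RPKM in Control. The groups of Sirt2 and Sirt5 overlapped, and the low Sirt5 value came from 1 Chd1KD library. Summed over the 6 genes, sirtuin RPKM was 56.7 and 61.7 in Chd1KD, against 68.3 and 64.9 in Control.

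The 3 scaffolds had fold changes of both signs. Rcor1, the CoREST protein that ties Hdac1 and Hdac2 to the histone H3 lysine 4 demethylase Kdm1a, had 12.7 and 14.2 RPKM in Chd1KD, against 9.67 and 11.4 RPKM in Control. Both Chd1KD libraries were above both Control libraries, with means of 13.5 ± 1.05 and 10.5 ± 1.22 RPKM (SD, n = 2 each) and a ratio of 1.28. The log2 fold change was 0.33 ± 0.09 (SE), 95% interval 0.10 to 0.55, limma adjusted p = 0.15. It ranged between 0.22 without Control replicate 1 and 0.44 without Control replicate 2. The limma adjusted p was 0.048 with the replicate number as a block, and 0.31 without a filter. Sin3a, the scaffold of the SIN3 complex, had 10.8 and 10.2 RPKM in Chd1KD, against 11.6 and 11.8 RPKM in Control (log2 fold change -0.14, 95% interval -0.29 to 0.02, limma adjusted p = 0.33). Ncor1, the nuclear receptor corepressor that activates Hdac3, had 30.7 and 32.5 RPKM in Chd1KD and 28.6 and 31.3 RPKM in Control (log2 fold change 0.08, 95% interval -0.09 to 0.24). The groups did not overlap for Sin3a and overlapped for Ncor1.

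**Figure D4:**
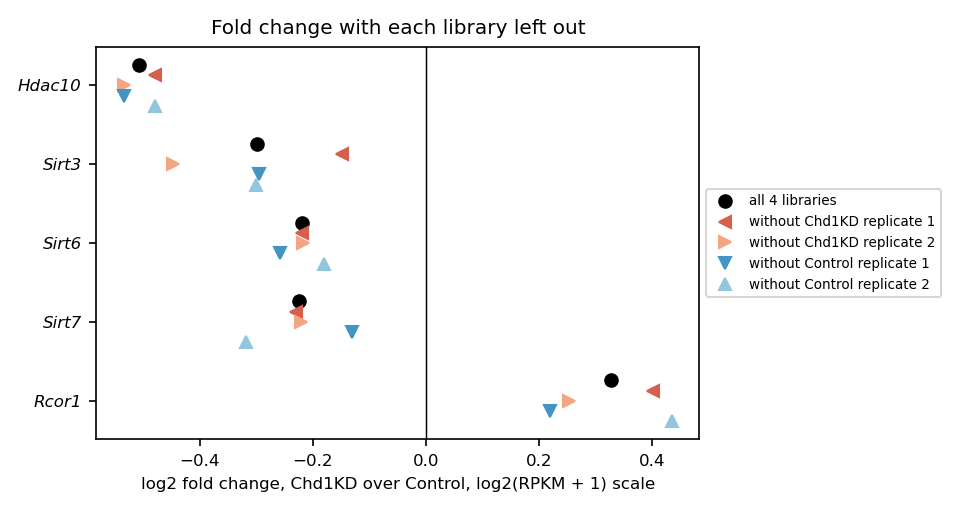
Log2 fold change of Chd1KD over Control on the log2(RPKM + 1) scale for the 5 genes at an unadjusted p under 0.05, with all 4 libraries and with each library left out. Hdac10 and Sirt6 moved least, and Sirt3 ranged between -0.45 and -0.15. The groups of these 5 genes did not overlap, so leaving out a library could not reverse their direction.

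Paralogs of the scaffolds were set beside them. Rcor2, a CoREST paralog, had 2.53 and 1.93 RPKM in Chd1KD, against 3.46 and 3.00 RPKM in Control, with a ratio of 0.69 and a limma adjusted p of 0.17. The Rcor1 to Rcor2 ratio was 5.02 and 7.34 in Chd1KD, against 2.80 and 3.80 in Control, and the groups did not overlap. This ratio was looked at after the values of both genes were known. Rcor3, the other CoREST paralog, had 3.67 and 4.43 RPKM in Chd1KD and 3.77 and 4.34 RPKM in Control, and its groups overlapped. The Rcor1 to Rcor3 ratio was 3.46 and 3.20 in Chd1KD, against 2.56 and 2.62 in Control. The Sin3a to Sin3b ratio was 0.164 and 0.161 in Chd1KD, against 0.168 and 0.1998 in Control. The summed acetyltransferase RPKM was 197.2 and 199.2 in Chd1KD, against 213.0 and 206.3 in Control, and that of the zinc-dependent deacetylases was 253.0 and 251.2 in Chd1KD, against 262.4 and 256.0 in Control. The ratio of those sums was 0.779 and 0.793 in Chd1KD, against 0.812 and 0.806 in Control. Its groups did not overlap. Hat1, the largest part of the acetyltransferase sum, had overlapping groups, with 61.0 and 62.5 RPKM in Chd1KD and 71.0 and 60.9 RPKM in Control. Kat2a, the next largest part, had groups that did not overlap. The part of single genes in the separation was not tested. Abundant genes weigh most in such sums, so the ratio does not describe the acetyltransferases as a set.

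Rcor1 was the gene with the highest fold change of the 28, so the sequence before its start is shown. The 250 bases upstream of the RefSeq start in GRCm38.p6, chr12:111039117-111039366 on the plus strand, run 5′ to 3′ as follows, with GC boxes (GGGCGG or its reverse complement CCGCCC) and CCAAT boxes (CCAAT or ATTGG) in capitals.
Rcor1: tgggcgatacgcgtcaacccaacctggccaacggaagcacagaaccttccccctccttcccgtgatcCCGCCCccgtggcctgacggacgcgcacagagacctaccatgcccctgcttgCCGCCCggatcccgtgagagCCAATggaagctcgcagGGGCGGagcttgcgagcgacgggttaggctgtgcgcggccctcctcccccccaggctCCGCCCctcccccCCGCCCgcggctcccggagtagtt
The window is 70.4% G and C, with 25 CpG dinucleotides, 5 GC boxes and 1 CCAAT box. Of the 30 genes, 26 had such a window in the RefSeq table. A GC box was present in 17 (65.4%) of the 26 and in 62.1% of 8202 tested genes with a window, and a CCAAT box in 14 (53.8%) and in 37.2%. Median G and C content was 61.0% in the 26 windows and 60.4% in those of all tested genes. These are counts of letters in windows of equal length, both strands searched.

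Partner subunits, acetyl-lysine readers and cofactor enzymes were listed by complex, 103 genes in 11 lists. Of these, 99 were tested and 0 were called. At an unadjusted p under 0.05 there were 15 with lower and 4 with higher values in Chd1KD, where the shares among all tested genes were 11.3% and 7.24%. A negative fold change was found for 66 of the 99 (66.7%), with a median of -0.04, where 56.5% of all tested genes were negative. The groups did not overlap in 44 of the 99, 33 lower and 11 higher, against 51.8% of all tested genes. Most partners named below were picked for the smallest p of their list, which favours groups that do not overlap. Among SIN3 partners, 8 of 14 were negative and the median was -0.02. Arid4b, a DNA-binding SIN3 subunit, had 10.2 and 10.4 RPKM in Chd1KD, against 7.86 and 8.67 RPKM in Control (ratio 1.24, limma adjusted p = 0.14). The next by p, Sap30, had a ratio of 0.92. Of the 11 NuRD partners, 6 were negative. Chd3, a remodelling ATPase of the same family as Chd1, had 50.7 and 52.5 RPKM in Chd1KD, against 60.6 and 64.6 RPKM in Control (ratio 0.82, limma adjusted p = 0.11). Mbd3, the NuRD subunit of the methyl-CpG-binding domain family, had 69.9 and 72.2 RPKM in Chd1KD, against 84.6 and 78.9 RPKM in Control (ratio 0.87, limma adjusted p = 0.17). The groups of Arid4b, Chd3 and Mbd3 did not overlap.

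CoREST partners were negative in 7 of 8, although the median was only -0.04. Besides Rcor2, Hmg20b, an HMG-box subunit, had 10.4 and 10.7 RPKM in Chd1KD, against 12.8 and 11.8 RPKM in Control (ratio 0.86, limma adjusted p = 0.20). Kdm1a, the demethylase of the complex, had 26.9 and 28.9 RPKM in Chd1KD and 28.5 and 28.4 RPKM in Control. It was named for its role beside Rcor1, after its values were seen.

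Among the acetyltransferase partners, 13 of 19 SAGA and ATAC genes were negative, with a median of -0.02. Supt3, a histone-fold subunit of SAGA, had 8.58 and 9.53 RPKM in Chd1KD, against 11.9 and 11.4 RPKM in Control (ratio 0.78, limma adjusted p = 0.11). Taf6l, another histone-fold subunit, had 4.70 and 4.68 RPKM in Chd1KD, against 5.73 and 5.46 RPKM in Control (ratio 0.84, limma adjusted p = 0.21). Neither pair of groups overlapped. The TIP60 list had the most negative median of the 11 lists, -0.11, with 13 of 16 genes negative. Meaf6, shared by the TIP60 and MOZ and HBO1 lists, had 17.0 and 14.5 RPKM in Chd1KD, against 18.8 and 18.2 RPKM in Control. Mrgbp, a TIP60 subunit, had 7.37 and 7.31 RPKM in Chd1KD, against 7.95 and 9.77 RPKM in Control. Their ratios were 0.85 and 0.83, with limma adjusted p of 0.23 and 0.27.

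MOZ, HBO1, MSL and NSL partners held genes of both directions. Ing5, a reader of histone H3 lysine 4 trimethylation in the MOZ and HBO1 complexes, had 10.01 and 10.3 RPKM in Chd1KD, against 7.43 and 8.11 RPKM in Control (ratio 1.31, limma adjusted p = 0.10). Phf20, an NSL subunit, had 16.0 and 15.0 RPKM in Chd1KD, against 12.4 and 12.5 RPKM in Control (ratio 1.24, limma adjusted p = 0.10). Mcrs1, of the same complex, had a lower mean in Chd1KD, with 40.8 and 39.7 RPKM in Chd1KD, against 52.6 and 45.4 RPKM in Control (ratio 0.82, limma adjusted p = 0.15). In each of these 3 genes the groups did not overlap. A negative fold change was found for 5 of 9 MOZ and HBO1 partners and 6 of 10 MSL and NSL partners.

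Of 3 nuclear receptor coactivators, which recruit Ep300 and Crebbp, Ncoa3 had 15.7 and 15.6 RPKM in Chd1KD, against 13.5 and 13.8 RPKM in Control (ratio 1.15, limma adjusted p = 0.19), and Ncoa2 had a ratio of 0.96. Of 3 tested BET readers, which bind acetylated histones through bromodomains, Brd2 had 61.6 and 63.1 RPKM in Chd1KD, against 71.2 and 69.3 RPKM in Control (ratio 0.89, limma adjusted p = 0.19), and Brd3 a ratio of 1.05. The groups of Ncoa3 and Brd2 did not overlap. Of 6 tested genes that supply acetyl-CoA or NAD+, 5 were negative. Nadsyn1, which makes NAD+ from its acid precursor, had 2.81 and 3.18 RPKM in Chd1KD, against 4.43 and 4.33 RPKM in Control, a ratio of 0.68 and the lowest limma adjusted p of the partners at 0.096. Nmnat3, the mitochondrial NAD+-forming adenylyltransferase, had 2.95 and 3.08 RPKM in Chd1KD, against 3.62 and 3.86 RPKM in Control (ratio 0.81, limma adjusted p = 0.21). The groups of Nadsyn1 and Nmnat3 did not overlap, whereas those of Nampt and Nmnat1, which also make NAD+ or its precursor, did, with ratios of 1.02 and 0.95. Nampt and Nmnat1 were named after their values were seen.

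**Figure D5:**
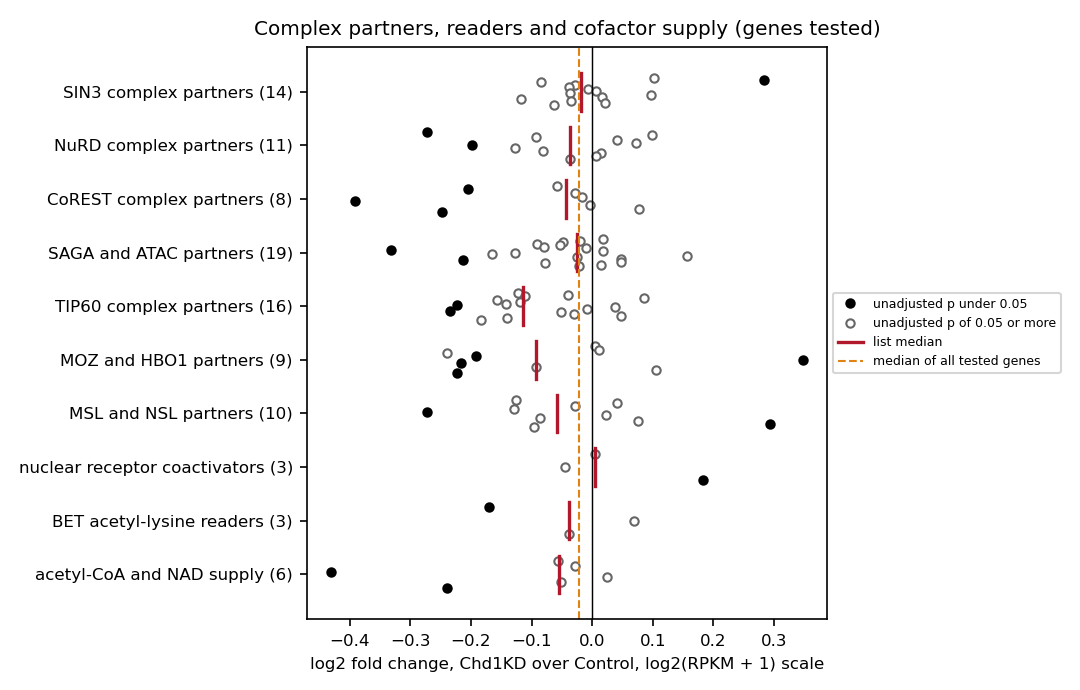
Log2 fold change of Chd1KD over Control on the log2(RPKM + 1) scale for the tested genes of 10 partner lists, with the number tested in brackets and each list's median as a red bar. Filled points are at an unadjusted p under 0.05. The list medians drawn lie between -0.11 and 0.0040, and the dashed line is the median of all tested genes at -0.02.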

How the data were processed

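The authors deposited RPKM values for 30582 RefSeq transcript rows in 4 libraries, per the file headers. The build mm10 and the tools TopHat 1.4.1 and Cufflinks 1.3.0 appear in the submitters' processing notes. The sources used here give neither annotation release nor strand setting. Rows were named through the RefSeq table of GRCm38.p6 (29999) or GENCODE (184), and 399 stayed unnamed. RPKM was summed per gene. 20 of the 30 genes overlap another annotated gene, 7 of them a protein-coding one.

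RPKM carries no counts, so depth is unknown, no counting interval is given, and an exact 0 need not mean absence. Genes averaging at least 1 RPKM (10209) were fitted on log2(RPKM + 1) by limma 3.58.1 (R 4.3.3), using its mean-variance trend option, and Benjamini-Hochberg adjusted p under 0.05 over all of them was a call. Added to a low RPKM, the 1 shrinks fold changes. Ratios use group means with nothing added. With 2 libraries a group, the smallest two-sided p of an exact permutation test is 0.333, so none was run.

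All 30 genes are named, plus the 2 genes with the smallest p of each partner list (1 list is not reported here), marker genes averaging at least 1 RPKM where a result touches them, and Chd1. These genes and lists were chosen with earlier results of these data known. The transcript fit and the transcripts described were chosen after values were seen. Other settings tried were a pseudocount of 0.1, no filter or one of 5 RPKM, upper-quartile and quantile scaling, and no or a robust trend. The most abundant transcript per gene, a replicate block, and dropping each library were tried as well. Median-centred libraries were also tried, though not planned.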

Additional observations from a re-analysis of the deposited data

How the results depend on the processing

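Acetylation genes called numbered 0 with all 4 libraries and under every alternative except the replicate block, where 2 were called (Hdac10, limma adjusted p = 0.039, and Rcor1, limma adjusted p = 0.048) and calls over all genes numbered 325 instead of 47. The replicate numbers carry no stated pairing. The differences between replicates 1 and 2 of the 2 groups correlated across genes at r = 0.22. Calls over all genes numbered 0 without a filter, which tests more genes and left 2153 at an unadjusted p under 0.05, 71 with a filter of 5 RPKM, 6 without the variance trend, 92 with a robust trend, 12 on the most abundant transcript, and between 49 and 236 with a library left out. Without a filter Chd1 kept its log2 fold change of -0.96 but missed the threshold (limma adjusted p = 0.25). The acetylation genes at an unadjusted p under 0.05 numbered 3 of 23 tested with a filter of 5 RPKM, and between 2 and 7 with a library left out. Over all genes, 1476 of 7705 reached an unadjusted p under 0.05 with the filter of 5 RPKM. With a library left out, the number over all genes was lowest and highest in the same fits as that of the acetylation genes. That range therefore does not describe the acetylation genes alone. Without Chd1KD replicate 1, 17 of the 28 acetylation genes had a negative fold change, where 56.1% of all genes did. In the other fits with a library left out they numbered 20 to 22, where between 52.0% and 58.5% of all genes were negative. The median log2 fold change of the acetylation genes was -0.0594 under upper-quartile scaling and -0.0613 under quantile normalization. With a library left out it lay between -0.0963 and -0.0626. Upper-quartile scaling moved the share of negative fold changes over all genes to 50.1%, and the acetylation genes stayed at 22.

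On the most abundant transcript alone, the log2 fold change turned round for Kat2a (0.0605), Kat7 (-0.0071), Hdac5 (0.15) and Hdac6 (-0.10). Other transcripts are left out there by construction. With a library left out it changed sign in 12 uncalled genes, ranging between -0.0547 and 0.0822 for Crebbp, -0.208 and 0.132 for Kat2b, -0.100 and 0.0464 for Kat6a, -0.196 and 0.0520 for Kat6b, -0.0484 and 0.0671 for Kat7, -0.159 and 0.0285 for Kat8, -0.198 and 0.0182 for Hat1, -0.104 and 0.0095 for Hdac2, -0.442 and 0.0810 for Hdac5, -0.0155 and 0.0984 for Hdac6, -0.126 and 0.0135 for Sirt2, and -0.428 and 0.0419 for Sirt5. The causes were not tested. With 2 libraries a group, a fit with 1 left out assumes that the lone library varies like the others. Unknown depth limits what can be said of genes near 1 RPKM, Hdac8, Hdac10, Kat6b and Sirt3 among them.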
